A study of Mus musculus with 10 samples.

Results

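The genes described here encode the voltage-gated calcium, sodium and potassium channels, their auxiliary subunits and the potassium channels that share their symbols. They were taken by symbol from a matrix of FPKM values (sequenced fragments scaled to transcript length and to library size, so that levels of different genes can be compared): a Cacna, Cacnb or Cacng symbol with a number, an Scn symbol with a number and the letter a or b, or a Kcn symbol with further letters and a final number. This rule took 131 of the 23230 features of the matrix. The family was looked at because Cacng5 had the largest difference of all tested features that were higher in tumour-derived cells than in their parental astrocytes, so for that comparison the values, differences and counts are a description, and they test neither the family nor its members. The rule also takes channels that are not voltage-gated, among them the inward rectifiers (Kcnj), the K2P leak channels (Kcnk) and the calcium- and sodium-activated potassium channels (Kcnma1, Kcnmb, Kcnn, Kcnt). It leaves out Scn2a1, an older symbol of a sodium channel alpha subunit, which was listed at 0.1245 to 0.7315 FPKM in the 10 libraries.

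RNAseq was used to compare 3 groups of mouse cells. AstroEGFR* (3 libraries) were C57BL/6 astrocytes from P5 cerebral cortex that lacked p16/p19 (Ink4a/Arf) and carried human EGFRvIII, a constitutively active epidermal growth factor receptor, from a retroviral vector. PT (4 libraries) were glioma propagating cells cultured from the primary tumours that arose when such C57BL/6 cells were transplanted into CD1 Nude mice, so they shared the knockout and EGFRvIII. AstroEGFR* Zfp423 (3 libraries) were AstroEGFR* with a further vector for Zfp423, a zinc finger transcription factor. All cells were used below passage 10, and each library was 1 culture, so p-values measure the spread between these cultures. By the labels and the paper, each AstroEGFR* Zfp423 culture was derived from the AstroEGFR* batch with its number. The within-batch values after Zfp423 rest on this pairing. The libraries do not show it for batch 3: AstroEGFR* Zfp423 3 had a rank correlation of 0.891 with AstroEGFR* 2 and 0.771 with AstroEGFR* 3. Tumours of batch 1 gave PT1 and PT4, those of batch 2 gave PT2 and those of batch 3 gave PT3. This assignment was read from a figure of the study and is not in the sample labels, and all within-batch values of PT rest on it. PT1 and PT4 had a rank correlation of 0.955, the other pairs of PT libraries 0.762 to 0.837. The SE and p-values of PT treat PT1 and PT4 as independent, so they can understate the spread between tumours. AstroEGFR* were grown with serum and PT without serum, with growth factors. The medium and the tumour step therefore cannot be told apart. In bulk RNA fewer cells of a type and less RNA per cell cannot be told apart.

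Voltage-gated channels open when the membrane depolarises and let calcium, sodium or potassium pass through a pore formed by an alpha subunit, while auxiliary subunits set how much channel reaches the membrane and how fast it opens and closes. Several Cacng genes are misnamed by history: Cacng2, Cacng3, Cacng4, Cacng5, Cacng7 and Cacng8 encode TARPs, transmembrane proteins that traffic and gate AMPA-type glutamate receptors, whereas Cacng1 and Cacng6 accompany muscle calcium channels. Glial cells are known less for action potentials than for potassium conductance, in astrocytes above all through Kir4.1 (Kcnj10) and K2P channels.

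Several libraries stood apart. Small RNA made up 0.21% to 0.612% of the summed FPKM in AstroEGFR* 1, PT1 and PT4, 4.81% and 6.06% in AstroEGFR* 3 and PT3, and 27.5% to 54.5% in AstroEGFR* 2, PT2 and the 3 AstroEGFR* Zfp423 libraries. In batches 1 and 3 this share therefore moves with the Zfp423 vector, and its part in the differences within these batches was not tested. AstroEGFR* Zfp423 1 and 2 held transcripts of microglia, the macrophages of the brain: C1qa, a complement component of these cells, was listed at 433.2 and 290.5 FPKM there and at 0 to 1.71 in the 8 others. The 8 microglial markers summed to 1.204 FPKM in AstroEGFR* Zfp423 3 and to as much as 1226 within that group, against 2.985 to 11.53 in AstroEGFR* and 1.1 to 36.6 in PT, where Cd68 in PT2 (36.48) made up nearly all of the highest sum. Of the 10 astrocyte markers, Gjb6 was listed at 0 in all libraries, and the sum was 525.5 to 1085 FPKM in AstroEGFR*, 377 to 978.9 in PT and 64.49 to 926.2 in AstroEGFR* Zfp423, lowest in AstroEGFR* Zfp423 2. The 8 markers of fibroblasts and meninges summed to 373.7 to 5609 FPKM in AstroEGFR*, 16.64 to 580.2 in PT and 245.4 to 6587 in AstroEGFR* Zfp423, and the 10 of the oligodendrocyte lineage to 109.1 to 310.9, 155.7 to 1796 and 66.38 to 247.6. Neuronal markers (10 of 11 found) summed to 30.39 to 74.68, 30.64 to 130.5 and 21.46 to 68.19 FPKM, 7 endothelial markers to 1.656 to 5.529, 0.4258 to 10.49 and 4.078 to 14.86, and 8 muscle markers to 25.31 to 194.3, 0.3836 to 1.626 and 4.054 to 127.8. Between PT and AstroEGFR*, 1 of 8 tested fibroblast markers and the 1 muscle marker tested were called lower in PT, and 0 markers of the other lists were called in that or the other comparisons. The part of other cell types in the results was not tested. Zfp423 was listed at 3.254 to 4.302 FPKM in AstroEGFR*, at 0.6405 to 2.781 in PT and at 15.66, 9.731 and 105.1 in AstroEGFR* Zfp423 1, 2 and 3. Cdkn2a, the symbol of Ink4a/Arf, was listed at 3.956 to 29.14 FPKM in AstroEGFR*, 7.335 to 129.7 in PT and 4.098 to 6.287 in AstroEGFR* Zfp423. The knockout is therefore taken from the labels and the paper, as a value by symbol does not show which part of the gene was read. The matrix holds no counts. From what 1 fragment was worth in low features, the depth relative to PT1 was put at 0.0712 in AstroEGFR* 3 and 0.0929 in PT3, and at 0.506 to 0.98 in the other libraries. Those 2 shallow libraries listed 57 and 68 of the 131 channel genes at 0, the others 19 to 46. A low value is therefore given as listed, not as absence.

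Most channel genes were low. Of the 131, 64 reached 1 FPKM in some library, 67 stayed below 1 in all 10 and 5 of these were listed at 0 throughout, while 24 reached 10 FPKM. All 4 calcium channel beta subunits reached 1 FPKM, as did 5 of 8 gamma subunits, 6 of 10 alpha1 subunits and 2 of 4 alpha2delta subunits. Among sodium channels 3 of 9 alpha and 3 of 4 beta subunits did so, and among potassium channels 16 of 40 Kv alpha subunits, 6 of 11 Kv auxiliary subunits, 7 of 12 calcium- or sodium-activated channels and subunits, 6 of 15 inward rectifiers and 6 of 14 K2P channels. In AstroEGFR* the highest median was that of Cacng7 (35.01 FPKM), followed by Cacnb3, Cacng8 and Kcnk10. In PT it was Cacng5 (76.53 FPKM), followed by Cacng7 (55.41), Kcnip3 (38.8), Kcnd3 and Kcnj10. In AstroEGFR* Zfp423 the leading medians were those of Cacnb3, Cacng7, Kcnn4 and Cacna2d1. The heat map of the named genes shows these levels in each library.

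**Figure D1:**
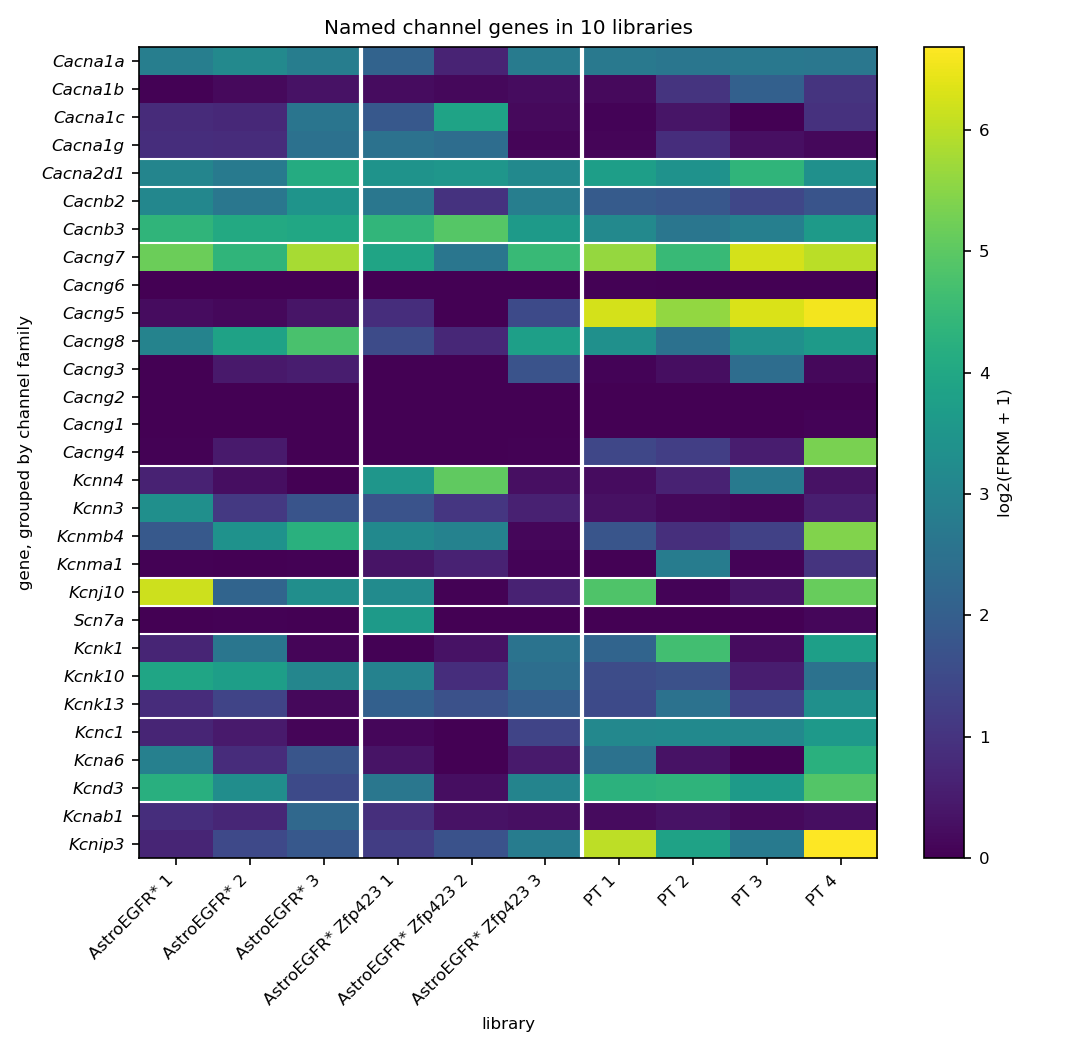
Level of 29 named channel genes (rows, grouped by channel family) in 10 libraries (columns) as log2(FPKM + 1), with white lines between the groups AstroEGFR*, AstroEGFR* Zfp423 and PT. Cacng5 is bright in the 4 PT libraries, Cacng7 in most libraries, and Kcnn4 in AstroEGFR* Zfp423 1 and 2.

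PT and AstroEGFR* were compared to describe what differs between glioma propagating cells and the astrocytes they came from. On log2(FPKM + 1), where the mean over these 7 libraries had to reach 1 FPKM, 40 channel genes entered the comparison and 91 did not. The genes just above that limit were Kcnma1 (mean of 1.011 FPKM), Kcnn4 (1.069) and Cacna1g (1.07), and those just below included Kcnab1 (0.8463) and Cacna1b (0.8121). The median difference of the 40 was 0.40 and that of all 12261 features 0.03. With limma and an adjusted p below 0.05, 2 of 40 channel genes, Cacng5 and Kcnc1, were higher in PT, where 0.318% of all features were, and 0 were lower, where 0.922% were (1.24% in either direction). The family was chosen with this contrast known, and both genes reached the mean of 1 FPKM only through PT, so nothing is read from these counts. With the batch as a replicate block, 4 channel genes and 475 features were called in place of 2 and 152. The 2 added genes were Kcnk10 and Cacnb3, both lower in PT. Without AstroEGFR* 1, 1 channel gene (Cacng5) and 7 features were called. With PT1 and PT4 averaged, 2 channel genes and 59 features were called. The 4 PT libraries were all above the 3 AstroEGFR* libraries in 6 of 40 channel genes (among them Cacng4, Cacng5, Kcnc1, Kcnip3 and Kcnj4; 6.95% of all features) and all below them in 7 (Cacna1a, Cacnb1, Cacnb2, Cacnb3, Kcnj2, Kcnk10 and Kcnn3; 7.81%).

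Cacng5, which encodes TARP gamma-5, was listed at 0.156, 0.1052 and 0.2976 FPKM in AstroEGFR* and at 75.77, 47.9, 77.29 and 93.49 in PT (73.61 ± 18.93, SD, n = 4). In AstroEGFR* Zfp423 it was listed at 0.8355, 0 and 1.817. The 4 PT libraries lay far above the 6 astrocyte libraries with no overlap. The difference between PT and AstroEGFR* was 5.94 on log2(FPKM + 1) (SE 0.27), and within batches it was 6.05 and 6.35 in batch 1, 5.47 in batch 2 and 5.91 in batch 3. Since the added 1 exceeds the AstroEGFR* values, this difference understates the ratio of FPKM. With a pseudocount of 0.1 in place of 1 it was 8.02.

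No other TARP that was tested had so large a mean difference. Cacng7, for TARP gamma-7, was listed at 35.01, 19.86 and 55.37 FPKM in AstroEGFR*, at 48.35, 21.66, 74.88 and 62.46 in PT and at 14.03, 5.121 and 21.48 in AstroEGFR* Zfp423. Its PT and AstroEGFR* values overlapped (difference 0.47, SE 0.50), and both groups were lowest in batch 2. Within batches the difference was 0.45 and 0.82 in batch 1, 0.12 in batch 2 and 0.43 in batch 3. Cacng8, for TARP gamma-8, was listed at 7.005, 13.54 and 26.39 FPKM in AstroEGFR*, at 9.285, 4.631, 9.265 and 11.43 in PT and at 1.858, 0.6808 and 12.75 in AstroEGFR* Zfp423. These groups overlapped as well (PT minus AstroEGFR*, −0.67, SE 0.46), and the direction was not shared by all batches, with 0.36 and 0.64 in batch 1, −1.37 in batch 2 and −1.42 in batch 3. Cacng4, for TARP gamma-4, was listed at 1.685, 1.376 and 0.4501 FPKM in PT1, PT2 and PT3 and at 39.72 in PT4, against 0.02657, 0.394 and 0 in AstroEGFR* and at most 0.02417 in AstroEGFR* Zfp423. All 4 PT values were above the astrocyte values, but PT4 alone carried most of the difference of 1.97 (SE 1.08). Cacng3, for TARP gamma-3, reached 4.232 FPKM in PT3 and 2.286 in AstroEGFR* Zfp423 3 and stayed at or below 0.4613 in the other libraries. The stargazin gene Cacng2 and the muscle subunit genes Cacng1 and Cacng6 never exceeded 0.05426 FPKM.

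**Figure D2:**
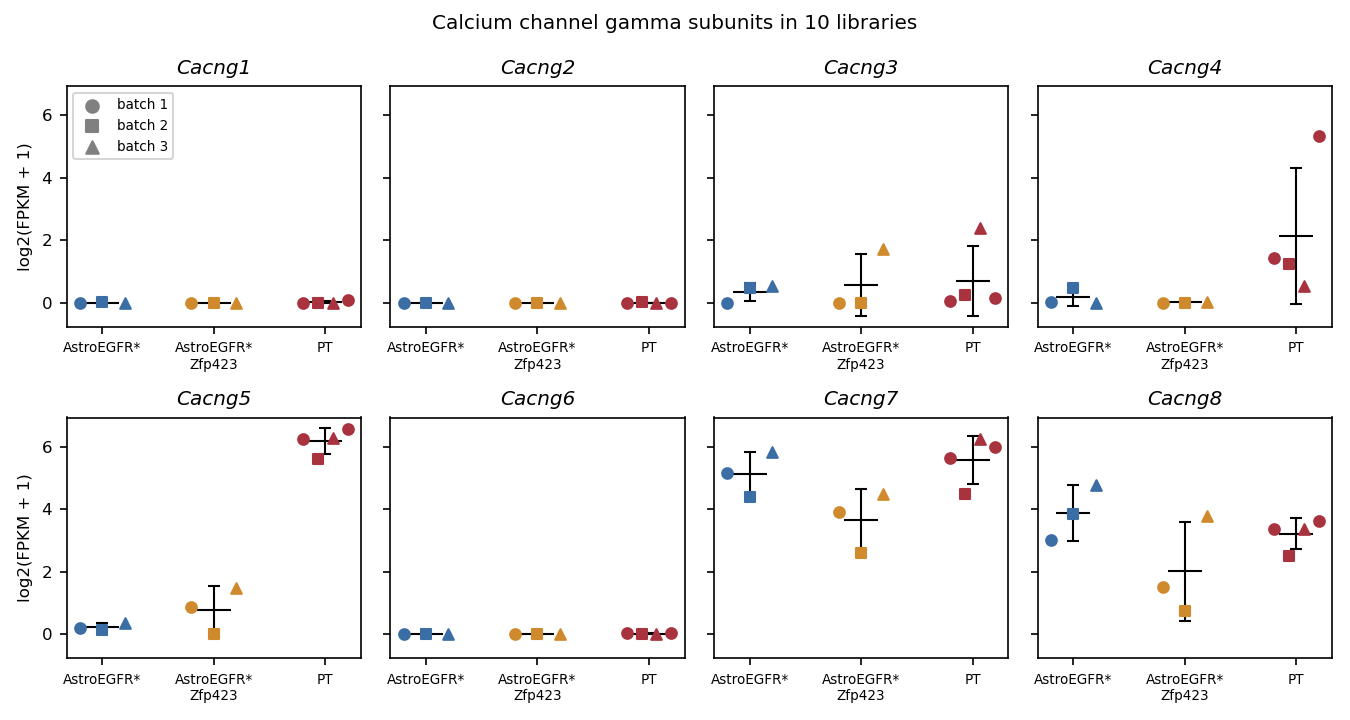
Levels of the 8 Cacng genes in 10 libraries as log2(FPKM + 1). Each point is 1 library, its shape gives the astrocyte batch, the short bar is the mean of the group and the error bar its SD; the 4 PT points of Cacng5 lie above all 6 astrocyte points, while those of Cacng7 and Cacng8 overlap with AstroEGFR*.

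Several Cacng genes lie near each other or near a protein kinase C gene. In RefSeq the order on chromosome 11 is Cacng1, Cacng4, Cacng5 and Prkca. Prkca was listed at 12.81 to 15.34 FPKM in AstroEGFR* and 5.246 to 11.84 in PT, lower in PT in every library. Cacng4 was higher in every PT library than in all astrocyte libraries, like Cacng5. Its level was not that of Cacng5, as it was below 2 FPKM in 3 of 4 PT libraries. On chromosome 7, Cacng3 follows Prkcb. Prkcb, which encodes protein kinase C beta, was listed at 0.4865, 4.639 and 0.08778 FPKM in AstroEGFR*, at 55.06, 93.04, 71.45 and 66.52 in PT and at 6.731, 6.784 and 61.08 in AstroEGFR* Zfp423. Its PT values lay above those of AstroEGFR*, while AstroEGFR* Zfp423 3 lay among them. Cacng7, Cacng8 and Cacng6 follow each other elsewhere on chromosome 7.

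The promoters of Cacng5, the gene for which the family was looked at, and of Kcnc1, whose PT values were also above all astrocyte values, are shown with that of Cacng7, the gamma subunit that was high in both groups. Sequences are from RefSeq (GRCm38.p6, whereas the FPKM were made on mm9) and span the 250 bases before an annotated start. Capitals mark matches on either strand. The GC box was searched as GGGCGG. The CCAAT box was searched by the letters of its name, and the TATA box as TATAAA. The RE1 element, which binds REST, a repressor of neuronal genes, was searched in separate parts, the left part as TTCAGCACC. The right part of that element was searched as GGACAG. Matches of different motifs may overlap. Cacng5 has a second start, with a window at chr11:107911363-107911612.
Cacng5, chr11:107915056-107915305, minus strand: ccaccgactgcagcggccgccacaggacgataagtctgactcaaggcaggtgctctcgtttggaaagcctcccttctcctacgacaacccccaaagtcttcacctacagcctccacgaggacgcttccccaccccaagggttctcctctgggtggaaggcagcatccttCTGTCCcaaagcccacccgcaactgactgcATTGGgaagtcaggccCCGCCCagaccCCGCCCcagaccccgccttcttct
Kcnc1, chr7:46396218-46396467, plus strand: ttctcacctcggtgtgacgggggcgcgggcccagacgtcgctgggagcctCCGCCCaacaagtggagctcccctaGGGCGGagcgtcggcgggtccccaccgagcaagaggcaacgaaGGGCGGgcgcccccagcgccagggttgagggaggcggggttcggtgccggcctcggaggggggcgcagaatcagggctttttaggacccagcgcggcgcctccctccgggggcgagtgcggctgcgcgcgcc
Cacng7, chr7:3332575-3332824, plus strand: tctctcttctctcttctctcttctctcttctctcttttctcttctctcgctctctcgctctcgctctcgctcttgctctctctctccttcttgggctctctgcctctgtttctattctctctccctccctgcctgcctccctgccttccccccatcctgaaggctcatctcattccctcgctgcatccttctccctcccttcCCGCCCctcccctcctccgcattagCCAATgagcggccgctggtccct

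The Cacng5 window had 2 GC boxes, 1 CCAAT box, 1 right part of RE1, 12 CpG sites and a GC content of 62%. The Kcnc1 window had 3 GC boxes, 30 CpG sites and a GC content of 74.4%, and the Cacng7 window 1 GC box, 1 CCAAT box, 9 CpG sites and a GC content of 58%. None of the 3 held the TATA box or the left part of RE1. Of the channel genes, 96 of 131 matched an entry, with 131 windows in all. A GC box was found in 42.75% of these and in 32.74% of all 32851 windows, a CCAAT box in 28.24% and 33.85%, a TATA box in 3.05% and 12.4%, the left part of RE1 in 0.763% and 0.301%, and the right part in 19.9% and 18.7%. The median GC content was 58% in channel windows and 52.4% in all windows. These matches are letters in a window and no sites of binding.

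Among the other calcium channel genes, 3 of the 4 beta subunits, which bring the pore to the membrane, entered the comparison, with differences of −1.34 to −0.63 and 0 called. Cacnb3 was listed at 19.61, 15.76 and 14.8 FPKM in AstroEGFR* and at 7.919, 5.112, 6.353 and 11.42 in PT (difference −1.07, SE 0.29). Cacnb2 was listed at 7.508, 5.257 and 10.03 FPKM in AstroEGFR* and at 2.791, 2.526, 1.673 and 2.304 in PT (−1.34, SE 0.30). In both genes, and in Cacnb1, the PT values lay wholly under the AstroEGFR* values, without passing the threshold in the comparison without a block. Cacnb4 reached 1 FPKM only in PT4 (1.984). The summed beta subunits were 25.04 to 30.31 FPKM in AstroEGFR*, 9.812 to 17.82 in PT and 20.22 to 32.23 in AstroEGFR* Zfp423. The alpha1 pore subunits summed to 13.49 to 17.98, 9.747 to 18.41 and 12.86 to 19.19 FPKM in the same order, so these groups overlapped. Cacna1a, the pore of P/Q-type channels, was listed at 6.144 to 7.812 FPKM in AstroEGFR* and 5.179 to 5.531 in PT. Cacna1c, the pore of cardiac and neuronal L-type channels, was listed at 0.7088 to 5.097 FPKM in AstroEGFR* and 0 to 0.9461 in PT, and the T-type pore Cacna1g at 0.7886 to 4.671 and 0.0677 to 0.8244. Cacna1b, the pore of N-type channels, reached 3.156 FPKM in PT3 and stayed at or below 0.2457 in the astrocytes. Cacna2d1, the alpha2delta subunit that binds gabapentin, was listed at 5.732 to 19.61 FPKM in all 10 libraries.

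Kcnc1, which encodes the fast delayed rectifier Kv3.1, was listed at 0.6247, 0.3998 and 0.05692 FPKM in AstroEGFR* and at 7.758, 8.082, 7.902 and 11.27 in PT. In AstroEGFR* Zfp423 it was listed at 0.08714, 0 and 1.581. The 4 PT libraries were above all astrocyte libraries, with PT4 above the 3 others, and the difference from AstroEGFR* was 2.85 (SE 0.29), with 2.43 to 3.07 within batches. Kcnip3, for a calcium-binding partner of Kv4 channels, was listed at 0.6057, 1.769 and 2.563 FPKM in AstroEGFR* and at 64.21, 13.4, 5.608 and 101.7 in PT. PT1 and PT4, of the same batch, were highest, and the difference of 3.49 had an SE of 0.93, with 5.34 and 6.00 in batch 1, 2.38 in batch 2 and 0.89 in batch 3. Transcription factors of the oligodendrocyte lineage were also highest in PT1 and PT4. From PT1 to PT4, Olig2 was listed at 328, 72.93, 39.68 and 360.4 FPKM and Olig1 at 1000.0, 69.27, 89.84 and 1089. In AstroEGFR* 1, 2 and 3 the lineage markers had no common order, with Olig1 at 175.9, 81.8 and 45.43 FPKM, Olig2 at 41.11, 42.89 and 7.755 and Pdgfra at 1.477, 3.364 and 5.667. Sox10 was listed at 8.178, 0.1035, 0 and 117.3 FPKM, highest in PT4 like Cacng4. Their part in these values was not tested. Kcnd3, which encodes the Kv4.3 pore, was listed at 17.69, 8.773 and 1.811 FPKM in AstroEGFR* and at 18.76, 19.3, 11.56 and 28.8 in PT (1.3, SE 0.62), with overlap. Within batches the difference was 0.08 to 2.16, largest in batch 3. Over the settings it ranged from 0.54 to 1.91, with 0.54 without the shallow AstroEGFR* 3. Kcna6, the Kv1.6 pore, ranged from 0.02055 to 17.98 FPKM within PT alone.

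The K2P channels, which carry the resting potassium leak, were listed in both directions. Kcnk10 (TREK-2) was listed at 14.21, 12.44 and 7.369 FPKM in AstroEGFR* and at 1.909, 2.159, 0.4486 and 4.715 in PT, without overlap (−2.02, SE 0.48). Kcnk1 (TWIK-1) was listed at 0.6041, 5.196 and 0.07239 FPKM in AstroEGFR* and at 3.411, 24.31, 0.166 and 12.72 in PT (1.56, SE 1.09), lowest in batch 3 in both groups, the batch of the shallow libraries. Kcnk13 (THIK-1) was listed at 0.7869, 1.566 and 0.1062 FPKM in AstroEGFR* and at 1.826, 4.754, 1.543 and 9.234 in PT (1.40, SE 0.57). Within batches Kcnk1 differed by 0.12 to 3.1 and Kcnk13 by 0.66 to 2.52. Kcnj10 (Kir4.1) was listed at 71.03, 3.418 and 8.941 FPKM in AstroEGFR* and at 27.54, 0.05047, 0.2672 and 34.16 in PT. Batch 1 was highest in both groups, so the difference of −1.28 was smaller than its SE of 1.56. It ranged from −2.29 to −0.13 over the settings, with −0.13 without AstroEGFR* 1. Every PT library was nevertheless below the AstroEGFR* library of its batch. Kcnn3, for the small-conductance calcium-activated channel SK3, was listed at 8.971, 1.15 and 2.329 FPKM in AstroEGFR* and at 0.2307, 0.109, 0.06247 and 0.4839 in PT (−1.78, SE 0.55), without overlap. Kcnma1, the BK channel pore, was above 1 FPKM only in PT2 (5.939) and PT4 (1.014).

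The AMPA receptor complex, other channel partners and other cation channels were set beside these genes. Of the AMPA receptor complex 10 of 13 genes were tested between PT and AstroEGFR*, with 0 called in either direction and a median difference of 0.50. The largest were those of the auxiliary proteins Shisa6 (1.84, SE 0.44) and Shisa9 (1.45, SE 0.56). The receptor subunit gene Gria3 was listed at 12.23 to 35.3 FPKM in AstroEGFR* and 9.792 to 25.11 in PT. Of the sodium and potassium channel partners 10 of 16 were tested (median 0.76), of the calcium channel partners 7 of 13 (0.29) and of other cation channels 6 of 16 (0.14), with 0 called in each. The cell adhesion molecule Cntn1 was listed at 10.26, 14.42, 0 and 122.1 FPKM in PT and at most 0.02771 in the astrocytes (PT minus AstroEGFR*, 3.57, SE 1.38), and its partner Nfasc at 15.76, 4.915, 0.278 and 28.99 FPKM in PT and at most 0.2184 in the astrocytes (2.83, SE 0.99). Both were lowest in PT3. The largest difference in the other direction was that of Cntnap2, a partner of Kv1 channels (−1.82, SE 0.95), in the calcium channel list that of Gem, a GTPase that inhibits these channels (−1.58, SE 0.54), and among other cation channels that of the sodium leak channel Nalcn (−1.23, SE 0.89).

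**Figure D3:**
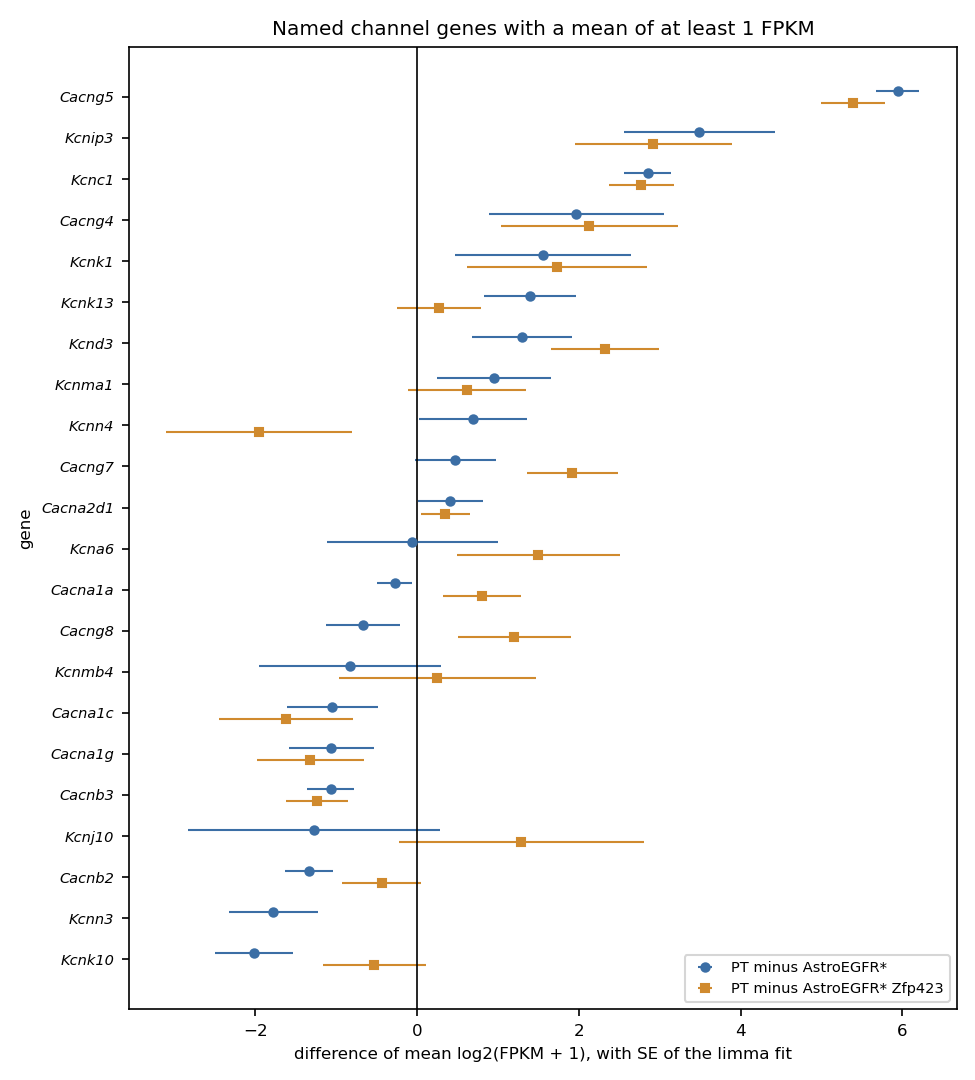
Difference of mean log2(FPKM + 1) between PT and AstroEGFR* (circles) and between PT and AstroEGFR* Zfp423 (squares) for 22 named genes of the 40 channel genes tested in the first comparison, with the SE of the limma fit as bars. Cacng5 stands at the top at 5.94 and 5.39, Kcnk10 at the bottom at −2.02; both comparisons use the same 4 PT libraries.

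PT were also set beside AstroEGFR* Zfp423, with the same 4 PT libraries, so the values of both comparisons are not independent. Cacng5 was chosen for its PT values and reached the mean of 1 FPKM only through PT here as well, so its value is a description. In this comparison 38 channel genes were fitted and 1 was called, Cacng5 (5.39, SE 0.40), where 0.0161% of all 12412 features (2) were called. The count was 0 with a pseudocount of 0.1, with no filter and with PT1 and PT4 averaged. The median difference was 0.59 for channel genes and −0.03 for all features. The PT libraries were all above the AstroEGFR* Zfp423 libraries in 6 of 38 channel genes (Cacng4, Cacng5, Cacng7, Kcnc1, Kcnd3 and Kcnj4; 7.23% of all features) and all below them in 0 (7.28%). Without both AstroEGFR* Zfp423 libraries with microglial transcripts 0 channel genes were called, and Cacng5 differed by 4.69 from the remaining library. In the full comparison Kcnc1 differed by 2.77 (SE 0.40), Kcnip3 by 2.92 (SE 0.97), Kcnd3 by 2.32 (SE 0.67) and Cacng4 by 2.13 (SE 1.09). Cacng7 differed by 1.92 (SE 0.56), Kcnk1 by 1.73 (SE 1.11), Cacna1c by −1.62 (SE 0.83) and Kcnn4 by −1.95 (SE 1.15). Over all settings Kcnk1 ranged from 0.15 to 2.74, Kcnd3 from 1.27 to 3.05 and Cacng7 from 1.1 to 2.33. Each of these was lowest without both libraries with microglial transcripts. Over the features that reached 1 FPKM in some library, every PT library was above all 6 astrocyte libraries in 5 of 64 channel genes (Cacng4, Cacng5, Kcnc1, Kcnj12 and Kcnj4) and in 2.92% of all features. Every PT library was below them in 1 of 64 (Kcnn3) and in 3.08% of all features.

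AstroEGFR* Zfp423 were compared with AstroEGFR* of the same batch to ask what the added factor changed, and this comparison was not used to choose the genes. No channel gene passed the threshold. With limma and the batch as a block, 35 channel genes were tested, 96 were not, and 0 were called, as were 0% of all 12366 features. At an unadjusted p below 0.05 there were 6 of 35 channel genes (17.1%) against 913 of all features (7.38%): Kcnj10, Cacng7, Cacng8, Kcna6 and Kcnk10 with lower and Kcnn4 with higher values after Zfp423. The adjusted p by limma was 0.628 for each of these. The median difference was −0.44 for channel genes, of which 21 were lower and 14 higher, and 0.02 for all features. All 3 AstroEGFR* Zfp423 libraries were below all 3 AstroEGFR* libraries in 4 of 35 channel genes (Cacna1a, Cacnb1, Kcna6 and Kcnk10; 5.87% of all features) and above them in 1 (Kcnk13; 5.68%).

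Kcnj10 was listed at 8.372, 0.02498 and 0.5708 FPKM in AstroEGFR* Zfp423 1, 2 and 3, each below the AstroEGFR* library of its batch (71.03, 3.418 and 8.941). The within-batch differences were −2.94, −2.11 and −2.66 (mean −2.57, SE 0.31). The values of Cacng7 were lower in each batch too, with differences of −1.26, −1.77 and −1.33 (mean −1.45, SE 0.23), as were those of Cacng8, with −1.49, −3.11 and −0.99 (mean −1.86, SE 0.50). The 9 tested astrocyte markers had lower log2(FPKM + 1) means after Zfp423 as well (median −1.73, 0 called), though not in every batch: S100b in batch 1 was listed at 1.914 FPKM in AstroEGFR* and 6.986 in AstroEGFR* Zfp423, and in batch 3 Aldh1l1 was at 127.5 and 355.9 in the same order, Aldoc at 15.34 and 33.09 and Gja1 at 85.0 and 91.11. The part of these markers in the differences was not tested. In batch 3 the AstroEGFR* Zfp423 library was without microglial transcripts. The values of Kcnj10, Cacng7 and Cacng8 for that batch come from a single pair of libraries that includes the shallow AstroEGFR* 3. The part of microglial RNA in these differences was not tested. Without both libraries with microglial transcripts, and then without the block, the difference between AstroEGFR* Zfp423 3 and all AstroEGFR* was −3.22 for Kcnj10, −0.63 for Cacng7 and −0.10 for Cacng8, so that of Cacng8 nearly vanished. Without these libraries the differences were −1.35 for Kcna6, −1.16 for Kcnk10, −0.16 for Cacna1a and 1.25 for Kcnk13. Cacng5 and Kcnc1 did not reach the mean of 1 FPKM in this comparison and were not tested. Their within-batch differences were 0.67, −0.14 and 1.12 for Cacng5 and −0.58, −0.49 and 1.29 for Kcnc1. Kcna6 differed by −1.56 (SE 0.54), Kcnk10 by −1.49 (SE 0.54), Cacna1a by −1.08 (SE 0.57), Kcnmb4, a BK channel subunit gene, by −1.08 (SE 1.13) and Kcnk13 by 1.13 (SE 0.49). Scn7a was listed at 11.51 FPKM in AstroEGFR* Zfp423 1 and at most 0.09462 in the 9 others, so its difference of 1.20 (SE 0.97) rested on 1 library. The AMPA receptor genes Gria4 (−1.74, SE 0.58), Gria3 (−1.72, SE 0.38) and Gria1 (−1.17, SE 0.68) were also listed lower, with 0 of the 6 tested genes of that complex called and a median of −0.91. In the other partner lists 0 genes were called either.

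**Figure D4:**
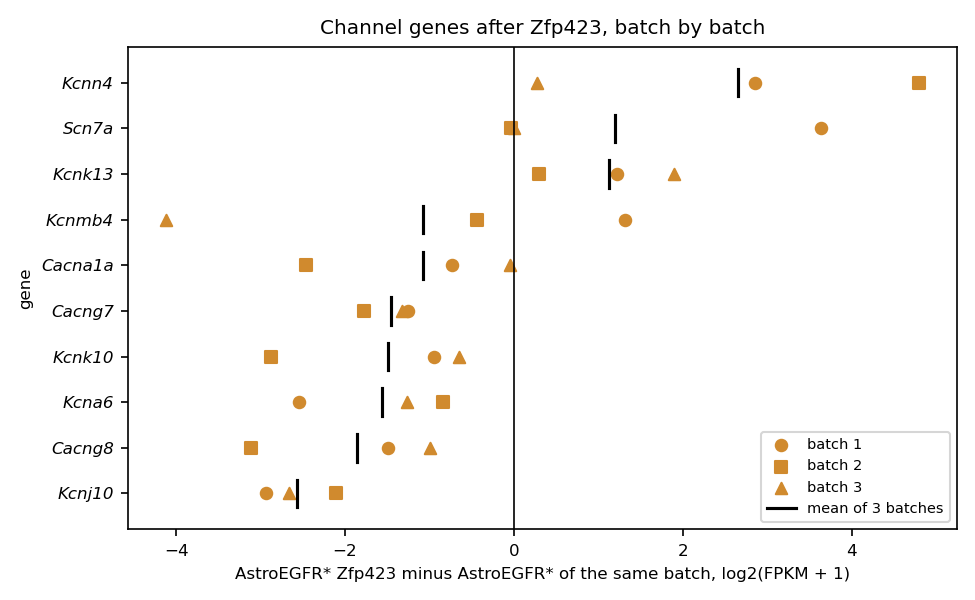
Difference in log2(FPKM + 1) between each AstroEGFR* Zfp423 library and the AstroEGFR* library of its batch (points, shape by batch) for the 10 tested channel genes with the largest mean difference (vertical bars, mean of 3 batches). Kcnj10, Cacng7, Cacng8, Kcnk10, Kcna6 and Cacna1a lie below 0 in the 3 batches, while Kcnn4 is near 0 in batch 3 and Scn7a is above 0 in batch 1.

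Some channel genes had high values in AstroEGFR* Zfp423 1 and 2, the libraries with microglial transcripts. Of the fibroblast markers, Col3a1 was listed at 1760, 1590 and 2.742 FPKM in AstroEGFR* Zfp423 1, 2 and 3. In the same order Col1a2 was at 1558, 2641 and 215.7, Col1a1 at 946, 1946 and 3.828 and Thy1 at 66.29, 275.6 and 11.17. Pdgfrb was at 72.93, 89.79 and 6.073, Foxc1 at 34.85, 39.15 and 5.911. Dcn was at 184.7, 5.895 and 0 and Lum at 1.035, 0.01963 and 0. In AstroEGFR* 3, the shallowest library (relative depth 0.0712), Kcnn4 was listed at 0, Col3a1 at 1117 FPKM and Lum at 50.7. Kcnn4, for the intermediate-conductance calcium-activated channel KCa3.1 known from immune cells, was listed at 10.36 and 31.92 FPKM in these libraries and at 0.2088 in AstroEGFR* Zfp423 3, against 0 to 0.5631 in AstroEGFR* and 0.1612 to 5.757 in PT. Of the libraries with microglial transcripts, that with the lower C1qa had the higher Kcnn4. Kcna3, the Kv1.3 channel of lymphocytes and microglia, was listed at 1.435 and 1.612 FPKM there and at most 0.5931 in the 8 others, and Kcnk6 at 2.287 and 2.008 against at most 0.3772. Over the channel genes that reached 1 FPKM, both libraries were above the 8 others in 6 of 64 (Cacna1d, Cacnb3, Kcna3, Kcnab2, Kcnk6 and Kcnn4) and in 6.23% of all features. Both were below the 8 others in 11 of 64, among them Cacna1a, Cacng7 and Cacng8, and in 3.99% of all features. The genes named here were chosen for these values, and the part of microglial or fibroblast RNA in them was not tested.

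**Figure D5:**
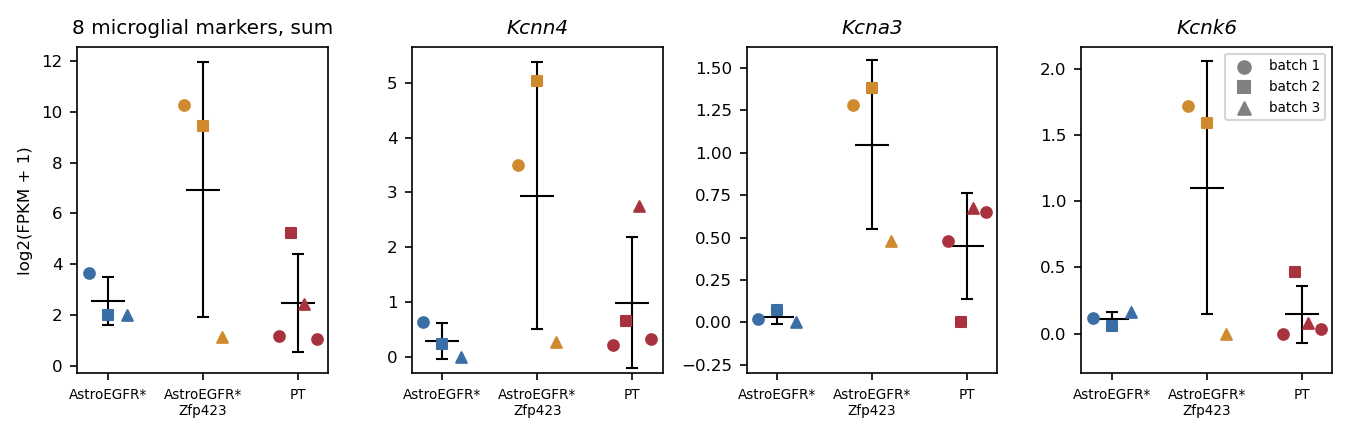
Sum of 8 microglial markers and levels of Kcnn4, Kcna3 and Kcnk6 in 10 libraries as log2(FPKM + 1), with a scale of its own for each panel; points are libraries with the shape giving the batch, bars are means and error bars SD. The microglial sum and the 3 channel genes are high in AstroEGFR* Zfp423 1 and 2 and low in AstroEGFR* Zfp423 3.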

How the data were processed

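The authors deposited 1 matrix of FPKM values by gene symbol. The submitters' notes name TopHat 1.3, Cuffnorm and mm9, the labels a TruSeq RNA kit and a lentiviral Zfp423 vector, and the paper RiboZero, stranded libraries and a retroviral vector. For its computational analysis the paper refers to its Supplementary Methods. All columns were used. FPKM are not counts, so features whose mean reached 1 FPKM were fitted as log2(FPKM + 1) with limma 3.58.1 in R 4.3.3 (empirical Bayes with trend, Benjamini-Hochberg over all features, threshold 0.05). The batch was a block between AstroEGFR* Zfp423 and AstroEGFR* only. The procedure was tested on simulated data. No interval can be given for depth.

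Some genes are not reported here. The members and gene lists were chosen with earlier results of these data known. Named were all Cacng genes, all genes past the threshold, the 10 largest differences per comparison, the 5 highest medians per group, the 3 genes on either side of the filter and up to 4 genes of each partner list. Others are named in counts or with their family, after their values were seen. Deviations from the group means correlated within batches at 0.346, 0.422, 0.426 and 0.499 between PT and AstroEGFR*, and at −0.34 to −0.091 across batches. Between AstroEGFR* Zfp423 and AstroEGFR* they correlated at 0.241, −0.111 and −0.262 within batches and at −0.232 to 0.308 across batches. The pairing there is from the study's batches, and these values do not bear it out. Alternatives were a pseudocount of 0.1, no filter, median-ratio scaling, no trend, all 10 libraries in 1 fit, a log2 difference of at least 1, the block added or removed, and each library left out. PT1 and PT4 averaged, and both microglial libraries left out, were chosen after seeing the data. Promoter windows were read with Python 3.11.15, pandas 2.3.3 and numpy 2.4.6, and plots drawn with matplotlib 3.10.9.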

Additional observations from a re-analysis of the deposited data

Results flagged for a closer look

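Of 23 named channel genes that reached 1 FPKM in PT, 3 had a PT library far from the 3 others, by a gap on log2(FPKM + 1) that exceeded Dixon's critical value as a share of the group's range. The gaps below are on that scale, the levels in FPKM, and on the FPKM scale the genes concerned can differ. Chance gives this in about 1 of 20 genes. Cacng3 was at 4.232 FPKM in PT3, with a gap of 0.915 of the range. Kcnc1 was at 11.27 FPKM in PT4, with a gap of 0.892, while the 3 other PT libraries were at 7.758 to 8.082. Kcnn4 was at 5.757 FPKM in PT3, with a gap just above the critical value. PT3 was the shallow PT library.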

How the results depend on the processing

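The difference of Cacng5 between PT and AstroEGFR* was 5.81 to 8.02 in the settings that were run. The number of channel genes called in that comparison was 2, but 4 with the batch as a replicate block and 1 to 2 with 1 library left out at a time. The lower number came without AstroEGFR* 1, where Kcnc1 differed by 2.99 and missed the threshold. Between PT and AstroEGFR* Zfp423 the number was 1, but 0 with a pseudocount of 0.1, 0 without a filter, 0 with PT1 and PT4 averaged, 0 without both libraries with microglial transcripts and 2 with all 10 libraries in 1 fit, and it ranged from 0 to 4 with 1 library left out at a time. It was 0 without PT1, PT4 or AstroEGFR* Zfp423 1, 2 without PT2 (Kcnc1 added) and 4 without AstroEGFR* Zfp423 3 (Cacna1g, Cacng8 and Kcnc1 added, with 629 features called). With the replicate block it was 1, with 20 features in place of 2. Between AstroEGFR* Zfp423 and AstroEGFR* it was 0 in every setting, left-out libraries included (0 to 0), without the replicate block too, while the features called were 0, 2 without the block, 47 without AstroEGFR* 2, 60 without AstroEGFR* Zfp423 2 and 12 without both libraries with microglial transcripts. The causes were not tested.

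Some differences changed sign. After Zfp423, Kcnmb4 ranged from −2.28 to 0.43 with 1 library left out, with 0.43 without either library of batch 3, and Scn7a from −0.02, without AstroEGFR* 1, to 1.82. Without both libraries with microglial transcripts PT minus AstroEGFR* Zfp423 was −0.57 for Cacng8 and 0.71 for Kcnn4. The other differences that were recomputed kept their direction. Depth limits what the low genes show, most in AstroEGFR* 3 and PT3, and a lone remaining library was assumed to vary like the others.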
